A study of Homo sapiens with 6 samples.

Results

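The 10 autophagy genes described here were ULK1, BECN1, WIPI1 and WIPI2, which act when an autophagosome begins to form, ATG5, ATG7 and ATG12, which attach LC3-type proteins to lipid, the LC3-type proteins MAP1LC3B and GABARAPL1, and SQSTM1, a cargo receptor. They were chosen by name, and every probe set that the platform annotation pairs with 1 of these genes alone was taken, which gave 30 of the 54613 probe sets tested and 10 of 19775 genes. A further probe set lists GABARAPL1 beside a near-identical gene and was left out. The arrays held total RNA of LNCaP, an established human prostate cancer line that responds to androgen. On 3 arrays the cells had been treated with siRNA, a short RNA that silences its match, against the non-coding RNA PCARNEQ (siPCARNEQ). On the other 3 arrays the siRNA was directed at EGFP, a jellyfish-derived marker protein with no human counterpart (siEGFP), so both groups share the line and the exposure to an siRNA. Nothing in the labels says that the 3 arrays of a group came from separate cultures, and p-values therefore reflect array-to-array spread, possibly of technical origin alone.

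Autophagy delivers parts of the cytoplasm to lysosomes in a membrane-bound vesicle, the autophagosome. The ULK1 kinase, held in check by MTOR and activated by AMPK, starts the process, and the lipid kinase complex that contains Beclin 1 (BECN1) then makes phosphatidylinositol 3-phosphate, which WIPI proteins read. ATG7 is the activating enzyme of a pair of ubiquitin-like systems that join ATG12 to ATG5 and LC3-type proteins to phosphatidylethanolamine, and receptors such as SQSTM1 tie cargo to the lipid-bound LC3. Messenger RNA levels do not measure the flow through this pathway, which depends largely on protein modification and turnover.

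Values are log2 intensities, in which a difference of 1 is a 2-fold change. The deposited arrays share 1 distribution, with a median of 7.03, so signal over background is not shown for a probe set under 7.03, and the number of arrays limits the precision. Array 1 stood apart from arrays 2 and 3 in both groups: the SD of the log2 difference over the 30 member probe sets was 0.408 to 0.447 between siPCARNEQ array 1 and its 2 companions, against 0.07 between siPCARNEQ arrays 2 and 3, and in siEGFP it was 0.203 to 0.221 against 0.101. Whether arrays 2 and 3 of a group are repeats of 1 sample is not stated in the labels. The p-values of fits with these arrays only may therefore measure technical spread alone. The 3' minus 5' difference of the ACTB control probe sets, a measure of RNA integrity, was 1.84 on siPCARNEQ array 1, against 0.68 to 0.69 on siPCARNEQ arrays 2 and 3 and 0.63 to 0.78 in siEGFP (exact permutation test over the group means, 2-sided p = 0.5, where 0.1 is the smallest p possible). That test compares group means and cannot judge 1 outlying array. For GAPDH the difference was 0.26 on siPCARNEQ array 1, against -0.09 and -0.14 on siPCARNEQ arrays 2 and 3 and -0.07 to -0.03 in siEGFP. Of 9 LNCaP markers listed, 7 had a probe set of their own and all 7 lay above 7.03 in both groups. Of these 7, 5 rose, by 0.45 (KRT18) to 1.15 (TMPRSS2), and KLK2 (0.46) and FOLH1 (-0.03) did not pass, with a median change of 0.51 over the 7. Of 10 measured markers of basal, stromal, immune, endothelial and neuroendocrine cells, 2 rose, 1 fell and 7 did not pass, with a median change of -0.04. Those below 7.03 in both groups were KRT14, COL1A2, PTPRC and CHGA. The collagen COL1A1 rose by 1.11 (10.79 in siPCARNEQ and 9.68 in siEGFP) and the keratin KRT14 by 1.02 (6.30 in siPCARNEQ and 5.28 in siEGFP), while ACTA2, smooth muscle actin, fell by 0.46 (7.96 in siPCARNEQ and 8.42 in siEGFP). The part of these markers in the results was not tested. The level of PCARNEQ was not analysed here.

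The autophagy genes did not move as a block. WIPI1 was 2.72-fold higher in siPCARNEQ cells in its brighter probe set and 2.61-fold higher in the other, and it was the gene among the 10 whose every probe set passed. GABARAPL1 rose in 1 of 2 probe sets and WIPI2 in 1 of 5, MAP1LC3B fell in 1 of 2 and BECN1 in 1 of 3. ATG5 had probe sets that passed in opposite directions, ATG7 rose in 1 of 4, and no probe set of ULK1, ATG12 or SQSTM1 passed. In all, 6 member probe sets rose and 3 fell (limma, adjusted p below 0.05 after Benjamini-Hochberg correction), where 9.92% of all probe sets rose and 8.61% fell. The 9 calls make 30% of the member probe sets, against 18.5% of all probe sets and 30.9% of the 27307 probe sets at or above the median level. As 27 of the 30 member probe sets lie above 7.03 in both groups, their share is near that background. The median change of the 30 was 0.09, against -0.013 over all probe sets. The groups did not overlap in 19 of the 30, against 37.7% of all probe sets. That background is not matched for level, since no such share was computed for probe sets at or above the median level.

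**Figure D1:**
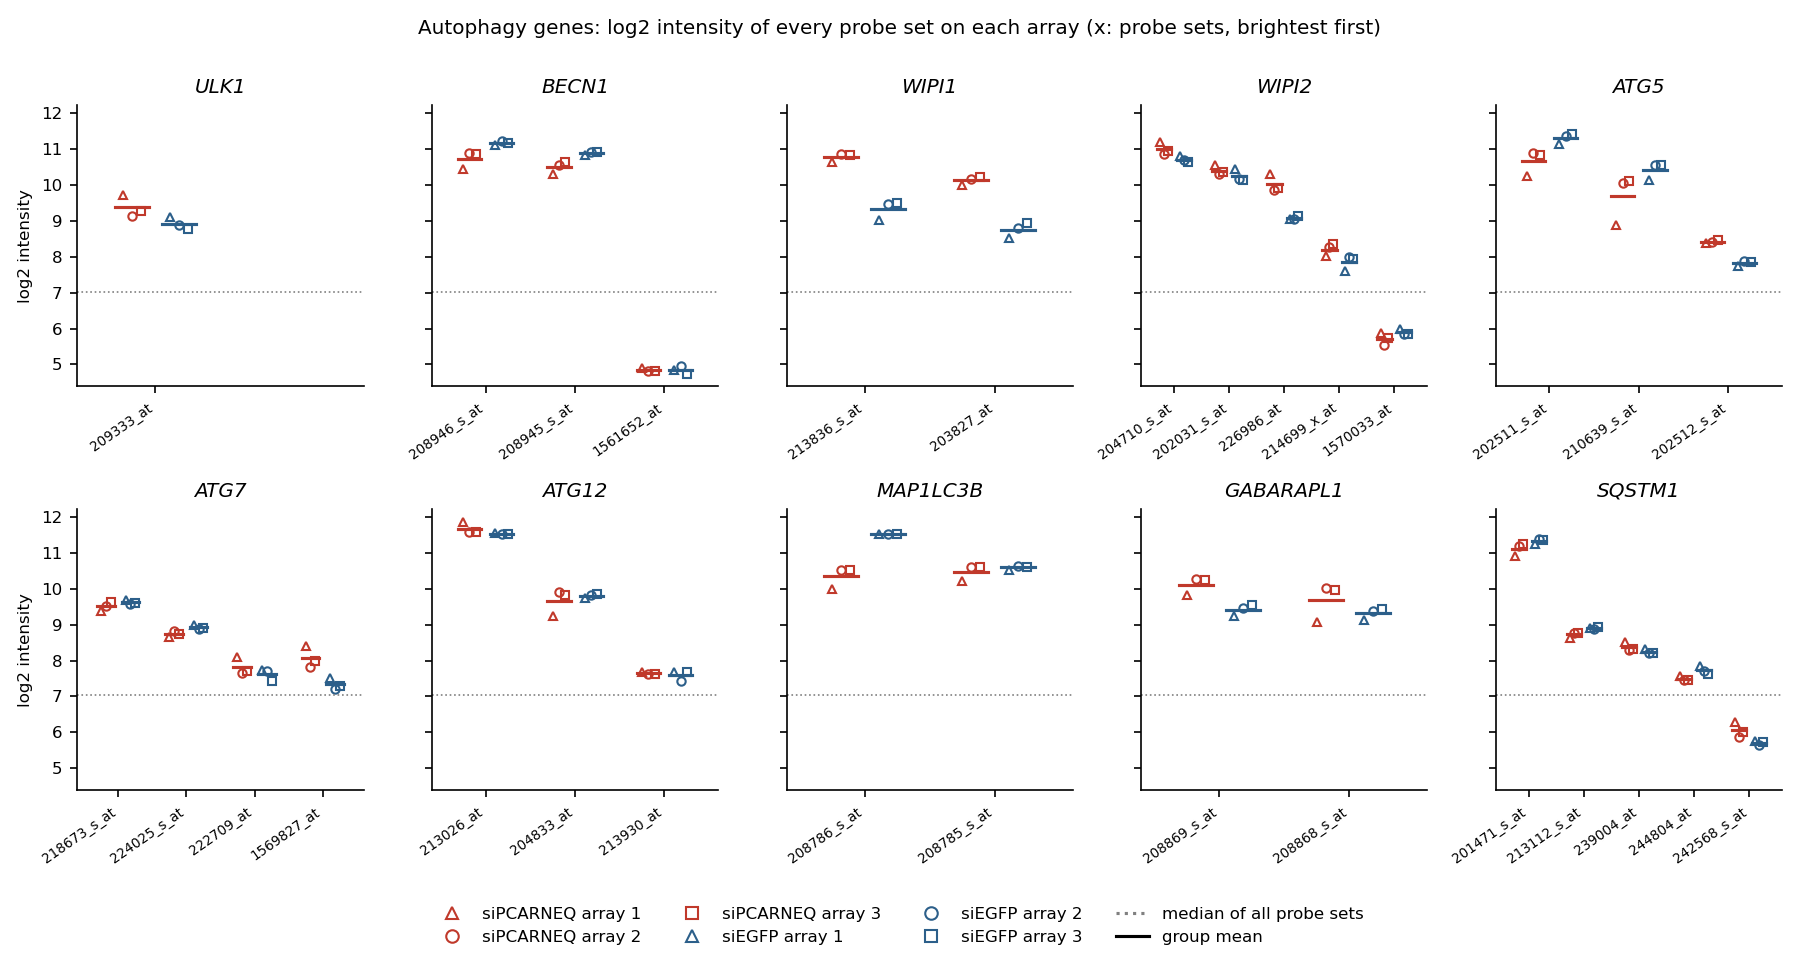
Log2 intensity (y axis) of each of the 30 member probe sets (x axis, by gene, brightest first) on 3 siPCARNEQ arrays (red, left) and 3 siEGFP arrays (blue, right), with bars at group means and a dotted line at the median of all probe sets, 7.03. WIPI1 is higher on all siPCARNEQ arrays in both probe sets, and MAP1LC3B is lower in 208786_s_at and overlaps in 208785_s_at.

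Of the initiation genes, WIPI1, a WD-repeat protein that binds phosphatidylinositol 3-phosphate at the site where the autophagosome forms, had the largest change among the 10. Probe set 213836_s_at of WIPI1 had 10.64, 10.86 and 10.84 on siPCARNEQ arrays 1 to 3, against 9.03, 9.48 and 9.50 on siEGFP arrays 1 to 3. Probe set 203827_at of WIPI1 had 10.01, 10.16 and 10.23 in siPCARNEQ, against 8.51, 8.80 and 8.94 in siEGFP. Every siPCARNEQ array lay above every siEGFP array in both. The rise was 1.44 (SE 0.14, adjusted p = 0.000902, limma) in 213836_s_at and 1.39 (SE 0.12, adjusted p = 0.000639) in 203827_at. The rise of 213836_s_at was 1.61 in array 1 and 1.36 in arrays 2 and 3, and both probe sets passed under every alternative that kept them. The difference between both probe sets of WIPI1 within an array was 0.61 to 0.69 in siPCARNEQ and 0.52 to 0.68 in siEGFP, an overlap between the groups.

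The promoter of WIPI1 is shown because this gene gave the clearest change. The stretch covers the 250 bases before the annotated start (chr17:68457497-68457746, minus strand, GRCh38.p14, RefSeq), with capitals marking GC boxes (GGGCGG) and CCAAT boxes (CCAAT) on either strand, motifs chosen after the data were seen.
WIPI1 promoter: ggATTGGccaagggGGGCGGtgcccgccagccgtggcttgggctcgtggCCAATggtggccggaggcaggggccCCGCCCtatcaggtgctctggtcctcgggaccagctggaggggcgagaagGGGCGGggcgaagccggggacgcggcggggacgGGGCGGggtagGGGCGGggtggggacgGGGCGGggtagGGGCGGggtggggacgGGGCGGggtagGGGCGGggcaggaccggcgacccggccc
Over the window of 300 bases, which runs 50 bases past the start, WIPI1 held 10 GC boxes and 2 CCAAT boxes, and several of the GC boxes stand in a repeated unit. At least 10 GC boxes, a threshold set at the count of WIPI1 itself, were found in 0.214% of 35116 RefSeq promoter windows of that length. At least 1 was found in 45% and a CCAAT box in 34.6%. These counts describe the sequence only.

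WIPI2, the relative of WIPI1 that brings the LC3 conjugation machinery to the forming membrane, gave values that depended on the probe set. Probe set 226986_at had 10.31, 9.87 and 9.92 in siPCARNEQ, against 9.06, 9.04 and 9.14 in siEGFP, a rise of 0.95 (SE 0.13, adjusted p = 0.00266, limma) with no overlap. This call held under every alternative run. The brightest probe set of WIPI2, 204710_s_at, had 11.21, 10.86 and 10.96 in siPCARNEQ and 10.80, 10.70 and 10.65 in siEGFP, and did not pass (0.30, SE 0.11, adjusted p = 0.11), although it passed with arrays 2 and 3 only (0.24, adjusted p = 0.0384). Leaving out any of the 6 arrays gave no call for 204710_s_at (adjusted p 0.087 to 0.29), nor did averaging arrays 2 and 3 (0.311). Probe sets 202031_s_at and 214699_x_at had changes of 0.15 and 0.36, and neither passed. With the replicate number as a block 214699_x_at passed (adjusted p = 0.0231), as it did without siPCARNEQ array 1 (0.45, adjusted p = 0.0431) and with arrays 2 and 3 only (0.33, adjusted p = 0.0128). This probe set missed on leaving out any other array (adjusted p up to 0.301) and with arrays 2 and 3 averaged (0.358). The fifth, 1570033_at, lay below the array median at 5.71 in siPCARNEQ and 5.90 in siEGFP. Within an array 204710_s_at exceeded 226986_at by 0.90 to 1.04 in siPCARNEQ and by 1.51 to 1.74 in siEGFP, so these 2 probe sets of WIPI2 changed unequally.

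ULK1, the kinase that starts autophagy, had 1 probe set, 209333_at. It had 9.73, 9.14 and 9.28 in siPCARNEQ, against 9.10, 8.90 and 8.77 in siEGFP. All siPCARNEQ arrays lay above the siEGFP arrays, array 2 by a small margin. The change of 0.46 (SE 0.17, 95% interval 0.07 to 0.85) did not pass (adjusted p = 0.105, limma). It passed with the replicate number as a block (adjusted p = 0.0238) and with arrays 2 and 3 only (0.38, adjusted p = 0.0185). It did not pass on leaving out any of the 6 arrays (adjusted p 0.0736 to 0.29) or with arrays 2 and 3 averaged (0.283).

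BECN1, the scaffold of the lipid kinase complex, was lower in siPCARNEQ cells in its 2 bright probe sets, at the edge of the threshold. Probe set 208945_s_at had 10.30, 10.57 and 10.64 in siPCARNEQ, against 10.84, 10.92 and 10.92 in siEGFP, and fell by 0.39 (SE 0.10, adjusted p = 0.0385, limma). Probe set 208946_s_at of BECN1 had 10.46, 10.89 and 10.86 in siPCARNEQ, against 11.12, 11.24 and 11.17 in siEGFP. Neither pair of groups overlapped. The change of 208946_s_at was -0.44 (SE 0.13), with an adjusted p of 0.0518 over probe sets and 0.0332 over genes. The call of 208945_s_at was lost without siPCARNEQ array 2 (adjusted p = 0.074), siEGFP array 1 (0.0787), siEGFP array 2 (0.131) or siEGFP array 3 (0.133). Probe set 208946_s_at passed with the replicate number as a block (adjusted p = 0.0272), without siPCARNEQ array 1 (-0.30, adjusted p = 0.0217) and with arrays 2 and 3 only (-0.33, adjusted p = 0.0101). On leaving out any other array it missed (adjusted p up to 0.168), as it did with arrays 2 and 3 averaged (0.198). The third probe set, 1561652_at, lay at 4.84 in both groups, below the array median.

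**Figure D2:**
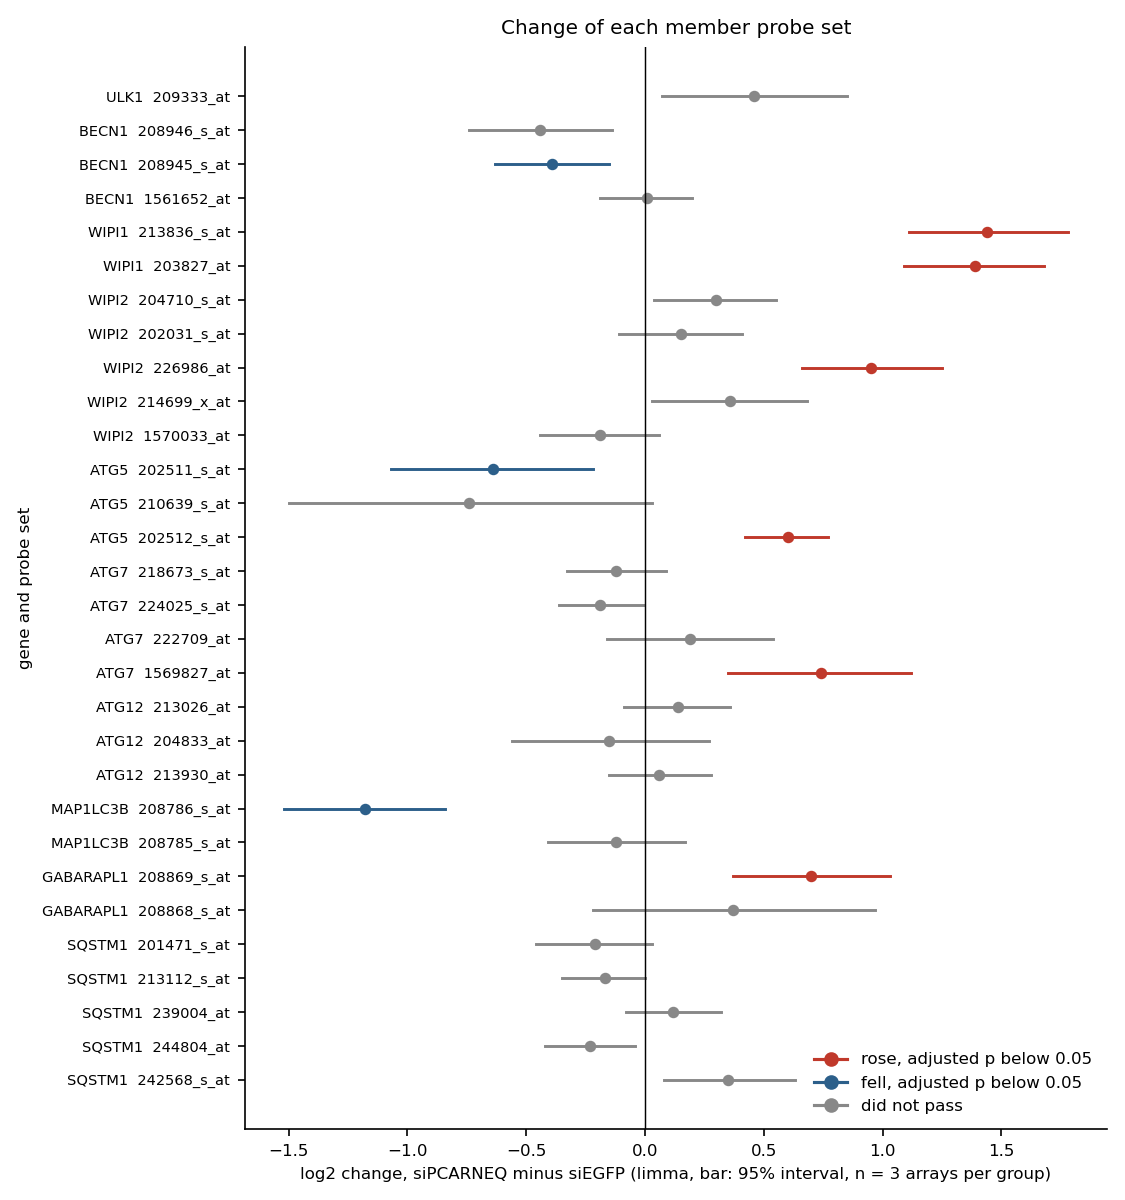
Log2 change, siPCARNEQ minus siEGFP (x axis), of each of the 30 member probe sets (y axis), with limma 95% intervals as bars (n = 3 arrays per group) and colours for probe sets that rose, fell or did not pass. The 2 WIPI1 probe sets lie furthest right at 1.44 and 1.39, MAP1LC3B 208786_s_at lies furthest left at -1.18, and ATG5 has coloured points on both sides of 0.

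Among the conjugation genes, ATG5, the partner that ATG12 is joined to, showed opposite changes in its probe sets. Probe set 202511_s_at, its brightest, had 10.25, 10.90 and 10.85 in siPCARNEQ, against 11.15, 11.36 and 11.42 in siEGFP, and fell by 0.64 (SE 0.18, adjusted p = 0.0498, limma). Probe set 202512_s_at of ATG5 had 8.38, 8.42 and 8.47 in siPCARNEQ, against 7.74, 7.88 and 7.85 in siEGFP, and rose by 0.60 (SE 0.07, adjusted p = 0.00208). Neither pair of groups overlapped, and the siPCARNEQ arrays were on opposite sides of the siEGFP arrays. Within an array 202511_s_at exceeded 202512_s_at by 1.87 to 2.48 in siPCARNEQ and by 3.41 to 3.56 in siEGFP. The third, 210639_s_at, had 8.90, 10.07 and 10.10 in siPCARNEQ and 10.15, 10.56 and 10.56 in siEGFP, with a change of -0.74 (SE 0.32, adjusted p = 0.178). It passed with the replicate number as a block (adjusted p = 0.0336) and with arrays 2 and 3 only (-0.48, adjusted p = 0.00219). Leaving out any of the 6 arrays gave no call for 210639_s_at (adjusted p 0.123 to 0.372), nor did averaging arrays 2 and 3 (0.342). The fall of 202511_s_at was the less stable of the 2 calls. Leaving out siPCARNEQ array 2 or 3 gave adjusted p of 0.0501 and 0.0654, and leaving out siEGFP array 1, 2 or 3 gave 0.0839, 0.154 and 0.165. The rise of 202512_s_at passed without each array in turn (adjusted p at most 0.0142). ATG5 is therefore given no single direction.

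ATG7, the activating enzyme, rose in 1569827_at alone, which had 8.42, 7.82 and 7.99 in siPCARNEQ, against 7.52, 7.20 and 7.30 in siEGFP (0.74, SE 0.16, adjusted p = 0.0216, limma). The siEGFP values stand close to the array median of 7.03. The call was lost without siEGFP array 2 (adjusted p = 0.0902) or siEGFP array 3 (0.0841). The brightest probe set of ATG7, 218673_s_at, had 9.37, 9.53 and 9.64 in siPCARNEQ and 9.70, 9.59 and 9.62 in siEGFP, which overlap (-0.12, 95% interval -0.33 to 0.09). The other 2 probe sets, 224025_s_at and 222709_at, had changes of -0.19 and 0.19 and did not pass. ATG12, the ubiquitin-like protein joined to ATG5, passed in none of 3 probe sets with limma, and none had an unadjusted p below 0.05. Its brightest, 213026_at, had 11.87, 11.58 and 11.59 in siPCARNEQ and 11.57, 11.52 and 11.54 in siEGFP, with a change of 0.14 (95% interval -0.09 to 0.36). The widest interval of ATG12 was that of 204833_at, -0.56 to 0.27, where siPCARNEQ array 1 lay at 9.23 and the other 5 arrays at 9.75 to 9.91.

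The LC3-type proteins are ubiquitin-like and become bound to autophagosome membranes. The RNA of the 2 LC3-type genes changed in opposite directions, each in 1 of 2 probe sets. MAP1LC3B, which encodes the LC3B used as the standard marker of autophagosomes, had 10.01, 10.52 and 10.53 in siPCARNEQ in probe set 208786_s_at, against 11.52, 11.54 and 11.53 in siEGFP. It fell by 1.18 (SE 0.14, adjusted p = 0.00201, limma), or 2.26-fold, with no overlap, and passed under every alternative that kept this probe set. Array 1 alone gave a change of -1.51, and arrays 2 and 3 gave -1.01. The other probe set of MAP1LC3B, 208785_s_at, had 10.21, 10.62 and 10.60 in siPCARNEQ and 10.53, 10.64 and 10.62 in siEGFP, which overlap (-0.12, SE 0.12, 95% interval -0.41 to 0.17, adjusted p = 0.583). Within an array 208786_s_at minus 208785_s_at was -0.20 to -0.07 in siPCARNEQ and 0.90 to 0.99 in siEGFP. The 2 probe sets thus changed unequally. The fall is given for 208786_s_at only, and whether the gene as a whole fell is not settled. The transcript positions that the probes match were not used here.

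GABARAPL1, of the GABARAP branch of the same family, went the other way in 1 of its 2 probe sets. Probe set 208869_s_at had 9.84, 10.27 and 10.25 in siPCARNEQ, against 9.25, 9.47 and 9.54 in siEGFP, and rose by 0.70 (SE 0.14, adjusted p = 0.0143, limma). Probe set 208868_s_at of GABARAPL1 had 9.08, 10.03 and 9.98 in siPCARNEQ, against 9.14, 9.38 and 9.43 in siEGFP. On siPCARNEQ array 1 it was no higher than in siEGFP, while siPCARNEQ arrays 2 and 3 exceeded all siEGFP arrays. Its change was 0.37 (SE 0.25, adjusted p = 0.38), and without siPCARNEQ array 1 it rose by 0.68 (adjusted p = 0.00341), or by 0.60 with arrays 2 and 3 only (adjusted p = 0.00136). On leaving out any other array 208868_s_at missed (adjusted p up to 0.676), as it did with arrays 2 and 3 averaged (0.725). The call of 208869_s_at was lost by a small margin without siPCARNEQ array 3 (adjusted p = 0.0511), siEGFP array 1 (0.0532) or siEGFP array 2 (0.0532). GABARAPL1 has near-identical relatives in the genome, and cross-matching of its probes was not tested.

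The promoters of the 2 LC3-type genes are shown side by side because 1 probe set of MAP1LC3B fell and 1 of GABARAPL1 rose, while the other probe set of each did not pass. Each covers the 250 bases before the annotated start on the plus strand (MAP1LC3B at chr16:87392086-87392335 and GABARAPL1 at chr12:10212627-10212876, GRCh38.p14, RefSeq), with GC boxes in capitals.
MAP1LC3B promoter: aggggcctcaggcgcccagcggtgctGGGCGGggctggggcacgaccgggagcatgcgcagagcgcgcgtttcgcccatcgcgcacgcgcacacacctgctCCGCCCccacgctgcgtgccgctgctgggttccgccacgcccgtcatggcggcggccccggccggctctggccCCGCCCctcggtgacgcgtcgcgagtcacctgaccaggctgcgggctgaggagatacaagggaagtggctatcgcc
GABARAPL1 promoter: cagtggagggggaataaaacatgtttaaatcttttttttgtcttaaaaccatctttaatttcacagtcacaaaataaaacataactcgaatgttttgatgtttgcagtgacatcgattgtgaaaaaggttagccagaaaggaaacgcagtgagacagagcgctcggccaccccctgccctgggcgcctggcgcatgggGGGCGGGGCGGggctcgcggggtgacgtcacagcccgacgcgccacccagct
The MAP1LC3B stretch had 74.8% G and C and 3 GC boxes, and the GABARAPL1 stretch had 51.6% and 2 overlapping ones. All 10 genes matched the RefSeq table, with 14 promoter windows between them, and 8 of the 10 genes had a GC box in a window. The E-box CACGTG at the core of the site that TFEB and TFE3 bind, its longer form TCACGTG, the FOXO motif GTAAACA and the ATF4 motif TGATGNAA, searched on both strands, were in 0 of the 14 windows, against 7.26%, 3.71%, 3.42% and 3.62% of all windows. This says only that those letters are not in these windows.

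SQSTM1, the receptor that carries ubiquitin-tagged cargo to LC3 and is itself degraded by autophagy, passed in none of 5 probe sets with limma, and 3 of the 5 had an unadjusted p below 0.05. The brightest, 201471_s_at, had 10.93, 11.19 and 11.25 in siPCARNEQ and 11.25, 11.39 and 11.37 in siEGFP, which overlap (-0.21, SE 0.10, 95% interval -0.46 to 0.03, adjusted p = 0.23). Probe set 244804_at of SQSTM1 had 7.56, 7.46 and 7.47 in siPCARNEQ, against 7.84, 7.70 and 7.64 in siEGFP, with a change of -0.23 (adjusted p = 0.106) that passed with arrays 2 and 3 only (-0.20, adjusted p = 0.046). That change missed on leaving out any of the 6 arrays (adjusted p 0.0624 to 0.242) and with arrays 2 and 3 averaged (0.355). Probe sets 213112_s_at and 239004_at had changes of -0.17 and 0.12. The dimmest, 242568_s_at, lay below the array median in both groups, and its change of 0.35 passed with the replicate number as a block (adjusted p = 0.0418), without siPCARNEQ array 2 (0.45, adjusted p = 0.0488) and with arrays 2 and 3 only (0.26, adjusted p = 0.0475). On leaving out any other array 242568_s_at missed (adjusted p up to 0.226), as it did with arrays 2 and 3 averaged (0.235). Intervals of the 4 probe sets of SQSTM1 above the median ran from -0.46 to 0.32, so a 2-fold change lay outside each of them.

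**Figure D3:**
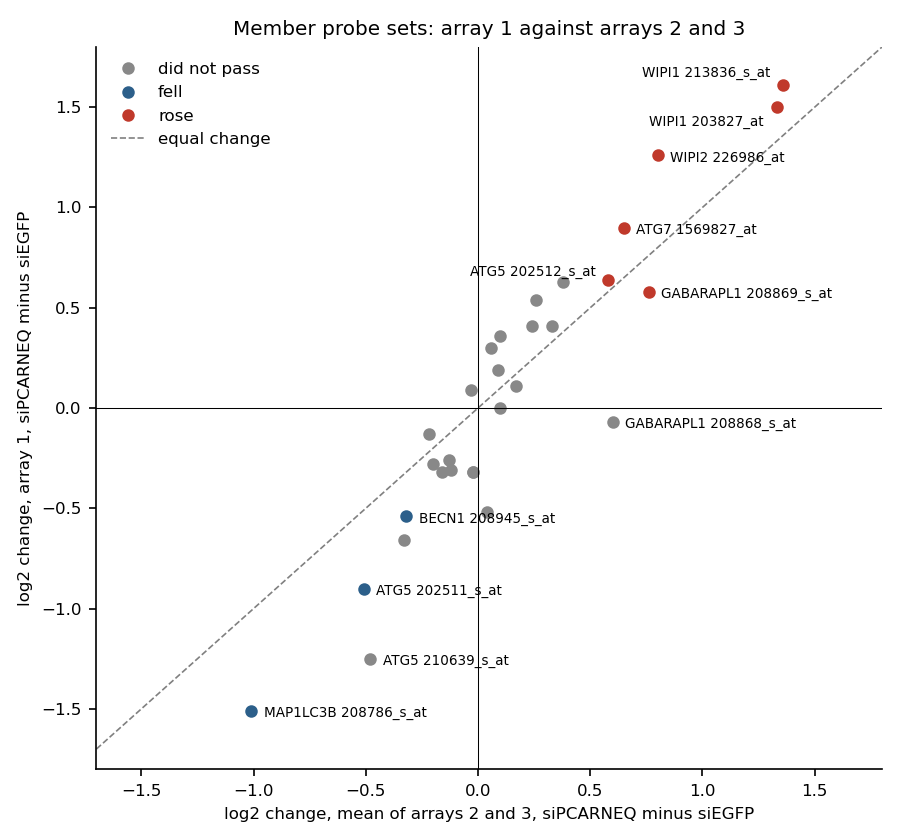
Log2 change, siPCARNEQ minus siEGFP, in array 1 (y axis) and in the mean of arrays 2 and 3 (x axis) for the 30 member probe sets, with a dashed line of equal change. All 9 probe sets that passed have the same sign on both axes, and GABARAPL1 208868_s_at lies at 0.60 in arrays 2 and 3 and -0.07 in array 1.

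The 9 calls had the same sign in array 1 and in arrays 2 and 3, and 3 of the 30 member probe sets had opposite signs there. Of the 9, 5 passed without each array in turn: both of WIPI1, WIPI2 226986_at, ATG5 202512_s_at and MAP1LC3B 208786_s_at. Without siPCARNEQ array 1, 12 member probe sets passed, the 9 among them, where 24.2% of all probe sets did. With arrays 2 and 3 alone, 17 passed, again with all 9 among them, where 31.3% of all probe sets did. As arrays 2 and 3 of a group lay close together and may be repeats of 1 sample, that fit may understate the spread. With arrays 2 and 3 of a group averaged as 1 sample, 4 of the 9 passed, both of WIPI1, WIPI2 226986_at and MAP1LC3B 208786_s_at, where 4.15% of all probe sets did.

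The genes nearest to WIPI1 and MAP1LC3B over the 6 arrays were found among 19774 others, each at its brightest probe set, by the root mean square difference of log2 values after each gene was centred on its own mean. For WIPI1 213836_s_at these were TTC39A (0.062), RAB27B, a GTPase of secretory vesicles (0.063), and ARHGAP29 (0.071), which rose by 1.35, 1.45 and 1.35. For MAP1LC3B 208786_s_at they were STK38L, a kinase of the NDR family (0.032), the death receptor FAS (0.035) and the clock protein BMAL2 (0.038), which fell by 1.15, 1.17 and 1.18. As these genes were picked for nearness over the same arrays, changes of like sign and size follow from the choice. In probe sets other than those named _s_at or _x_at, which can match several transcripts, TTC39A had a change of 0.32 (adjusted p = 0.0812, limma), FAS of -0.24 (adjusted p = 0.139) and BMAL2 of -0.71 (adjusted p = 0.0037). As the mean of their probe sets TTC39A had a change of 0.56 and RAB27B of 0.95.

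The other genes of the pathway were taken as 77 genes in 10 lists, all of them measured, each at its brightest probe set and with p-values adjusted over 19775 genes. Of these, 23 rose, 12 fell and 42 did not pass, where 15.2% of all genes rose and 12.3% fell. The groups did not overlap in 47 of the 77, against 44% of all genes. Of the 77, 2 lay below 7.03 in both groups and the rest above it in both. The shares of all genes are not matched for level. Among probe sets, 30.9% of those at or above the median level were called, against 18.5% of all. The median change was 0.10, against -0.014 over all genes, and list medians ran from -0.14 for conjugation genes and ATG4 proteases to 0.22 for the ULK complex.

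**Figure D4:**
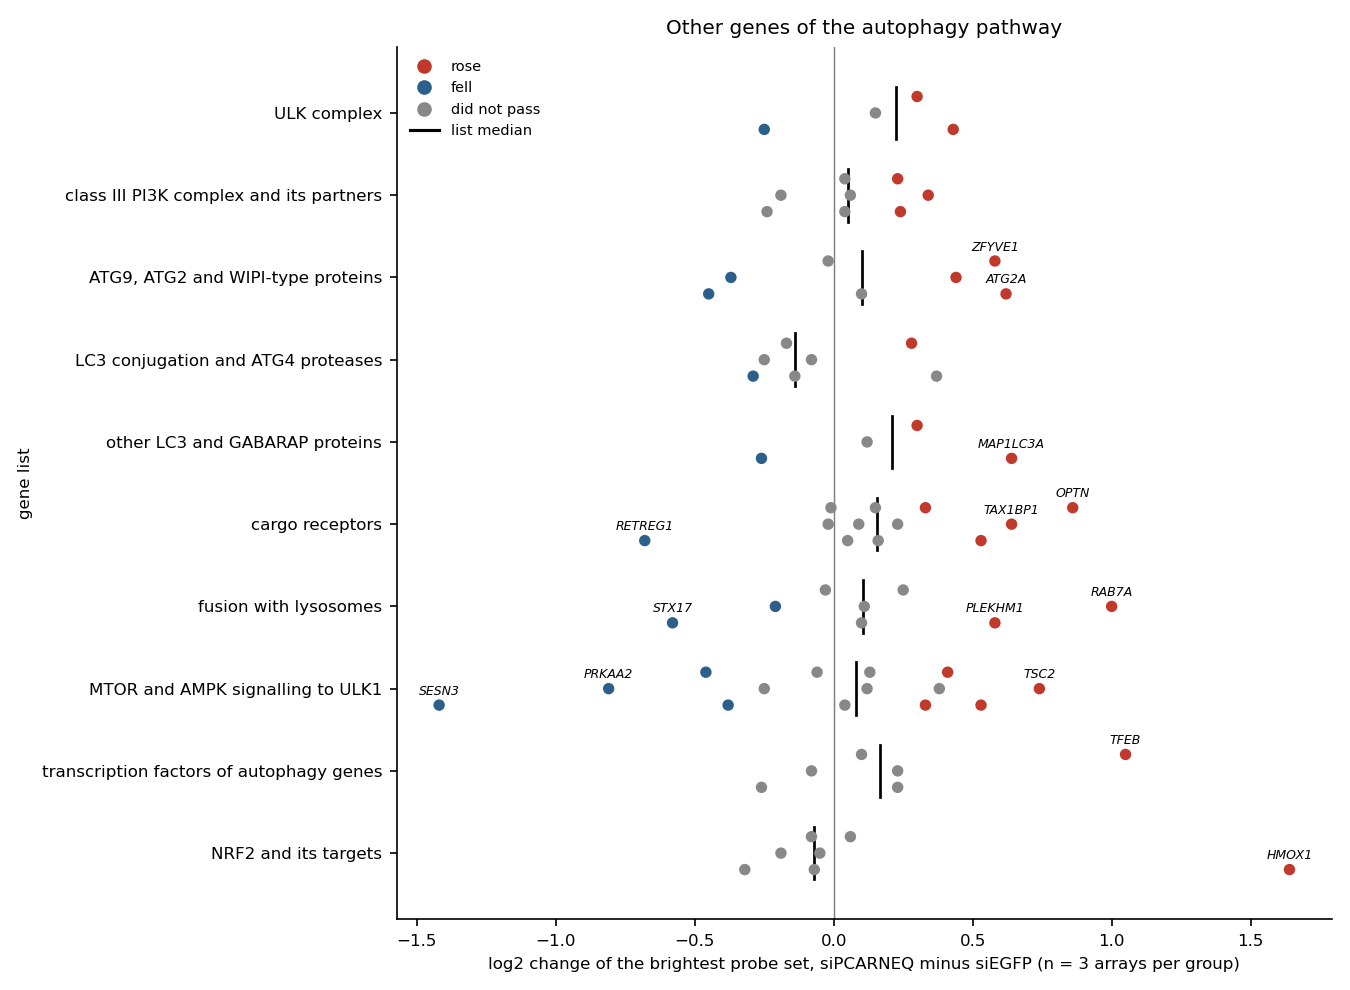
Log2 change, siPCARNEQ minus siEGFP (x axis, n = 3 arrays per group), of 77 other pathway genes at their brightest probe set, by list (y axis), with points coloured by rose, fell or did not pass and bars at list medians. List medians lie between -0.14 and 0.22, while HMOX1 reaches 1.64, TFEB 1.05 and SESN3 -1.42.

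The upstream signals changed gene by gene. Of 14 genes of MTOR and AMPK signalling, 4 rose, 4 fell and 6 did not pass. SESN3, a sestrin that restrains MTOR, had 10.21, 10.49 and 10.27 in siPCARNEQ, against 12.12, 11.62 and 11.50 in siEGFP, and fell by 1.42 (SE 0.17, adjusted p = 0.000899, limma). PRKAA2, a catalytic subunit of AMPK, fell by 0.81 (SE 0.09, adjusted p = 0.000679), and MTOR itself by 0.46 (SE 0.07, adjusted p = 0.00205). RHEB fell as well (-0.38). The 4 that rose were TSC2 (0.74), DEPTOR (0.53), SESN1, also a sestrin (0.41), and PRKAA1, also a catalytic subunit of AMPK (0.33, adjusted p = 0.0374). RHEB and the 4 that rose are named after their values were seen, and alternatives are not given for them. As the mean of its probe sets SESN3 had a change of -0.92 (adjusted p = 0.0275), PRKAA2 of -0.45 (0.00313) and MTOR of -0.21 (0.191, not passing). MTOR also missed with arrays 2 and 3 averaged (adjusted p = 0.0556). Of 6 transcription factors, 1 rose and 5 did not pass. The riser was TFEB, a master regulator of autophagy and lysosome genes, with 9.26, 8.85 and 9.11 in siPCARNEQ, against 7.73, 8.06 and 8.26 in siEGFP (1.05, SE 0.16, adjusted p = 0.00247). TFEB passed under every alternative run.

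In the ULK complex 2 genes rose, 1 fell and 1 did not pass. ATG101 rose by 0.43 (adjusted p = 0.0327, limma) and the scaffold RB1CC1 by 0.30 (adjusted p = 0.029), while the kinase ULK2 fell by 0.25 (adjusted p = 0.044). Of 8 genes of the lipid kinase complex and its partners, 3 rose, 0 fell and 5 did not pass with limma, of which only PIK3C3, the kinase itself, was lower at an unadjusted p below 0.05 (-0.24, SE 0.09, adjusted p = 0.0973). PIK3C3 is named after its value was seen. NRBF2, UVRAG and PIK3R4 rose by 0.34, 0.24 and 0.23 (adjusted p = 0.0236, 0.0265 and 0.0439). These 6 calls are small, and each was lost on leaving out 4 or 5 of the 6 arrays, with adjusted p up to 0.154, and with arrays 2 and 3 averaged (adjusted p of 0.155 to 0.241). As the mean of their probe sets NRBF2 had a change of 0.24, PIK3R4 of 0.08 and ULK2 of -0.05, none of which passed. ULK2 also missed with the replicate number as a block (adjusted p = 0.0543) and had a change of 0.03 when probe sets named _s_at or _x_at were left out.

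Among 7 genes of the ATG9, ATG2 and WIPI type, 3 rose, 2 fell and 2 did not pass. Unlike WIPI1, the WIPI-type gene WDR45B fell, by 0.45 (SE 0.09, adjusted p = 0.0101, limma), and WDR45 did not pass (0.10). WDR45B and WDR45 are named after their values were seen, and alternatives are not given for them. The lipid transfer protein ATG2A rose by 0.62 (SE 0.10, adjusted p = 0.00348, limma) and ZFYVE1, a protein that like WIPI1 binds phosphatidylinositol 3-phosphate, by 0.58 (SE 0.06, adjusted p = 0.00064), while the lipid scramblase TMEM41B fell by 0.37 (SE 0.07, adjusted p = 0.0072). ZFYVE1 had a change of 0.29 as the mean of its probe sets (adjusted p = 0.109), and TMEM41B missed with arrays 2 and 3 averaged (adjusted p = 0.102). Of 7 conjugation genes and ATG4 proteases, ATG10 rose by 0.28 (adjusted p = 0.0355), ATG4B, which trims LC3, fell by 0.29 (adjusted p = 0.0269), and 5 did not pass. ATG10 lost its call on leaving out 4 of the 6 arrays and ATG4B on leaving out 5, with adjusted p up to 0.0941, and both missed with arrays 2 and 3 averaged. As the mean of all probe sets ATG10 had a change of 0.11 and ATG4B of -0.11.

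The other 4 LC3-type genes included 2 that rose, 1 that fell and 1 that did not pass. MAP1LC3A rose by 0.64 (SE 0.18, adjusted p = 0.0373, limma) and GABARAPL2 by 0.30 (adjusted p = 0.035), while MAP1LC3C fell by 0.26 (adjusted p = 0.0246) at levels of 5.68 in siPCARNEQ and 5.93 in siEGFP, below the array median. Each of these calls was lost on leaving out at least 3 of the 6 arrays, with adjusted p up to 0.127, and with arrays 2 and 3 averaged. Of 12 cargo receptors, 4 rose, 1 fell and 7 did not pass. OPTN, a receptor for mitochondria and bacteria, had 9.22, 9.11 and 9.24 in siPCARNEQ, against 8.44, 8.20 and 8.37 in siEGFP, and rose by 0.86 (SE 0.08, adjusted p = 0.000473). The rise of OPTN was 1.44 as the mean of its probe sets and 2.02 without probe sets named _s_at or _x_at. CALCOCO2, the receptor also called NDP52, rose by 0.53 (SE 0.07, adjusted p = 0.0018), or by 0.33 as the mean of its probe sets, and missed with arrays 2 and 3 averaged (adjusted p = 0.0519). RETREG1, a receptor for the endoplasmic reticulum, fell by 0.68 (SE 0.08, adjusted p = 0.00105) and had a change of -0.32 (adjusted p = 0.0195) as the mean of its probe sets and of -0.18 (adjusted p = 0.365) without probe sets named _s_at or _x_at.

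Of 8 genes of fusion with lysosomes, 2 rose, 2 fell and 4 did not pass. RAB7A, the GTPase of late endosomes, had 12.73, 12.45 and 12.44 in siPCARNEQ, against 11.51, 11.56 and 11.55 in siEGFP, and rose by 1 (SE 0.09, adjusted p = 0.000363, limma), or 2-fold. It had a change of -0.12 (adjusted p = 0.54) in the brightest probe set not named _s_at or _x_at and of 0.23 (adjusted p = 0.0205) as the mean of its probe sets. PLEKHM1, an adaptor that binds RAB7A and LC3, rose by 0.58 (SE 0.06, adjusted p = 0.000706), or by 0.34 as the mean of its probe sets. The fusion protein STX17 fell by 0.58 (SE 0.11, adjusted p = 0.00631) and missed with arrays 2 and 3 averaged (adjusted p = 0.0785). Of 7 genes of NRF2 and its targets, a group that SQSTM1 can switch on through KEAP1, 1 rose and 6 did not pass. The riser was HMOX1, which breaks down haem, with 10.70, 10.96 and 10.98 in siPCARNEQ, against 9.24, 9.25 and 9.21 in siEGFP (1.64, SE 0.09, adjusted p = 5.78e-05), and it passed under every alternative run.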

How the data were processed

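Total RNA from 3 siPCARNEQ and 3 siEGFP samples of LNCaP was labelled with biotin by the standard Affymetrix method, per the labels' protocols. The authors deposited probe-set intensity on a linear scale, which the submitters' processing notes credit to RMA without a version. Once ranked, the log2 values of any array matched those of the others to within 0.00494, so a shift in total signal cannot be seen. The promoter stretches are on GRCh38.p14, while no genome build or probe sequence is given for the arrays in the sources used here.

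Log2 was taken with no pseudocount, and 62 Affymetrix controls were left out of 54675 probe sets. Probe sets with 1 gene in the platform annotation (41091) were named, and 30 of 30 member probe sets matched RefSeq by gene identifier. The comparison used limma 3.58.1 (lmFit, then eBayes, in R 4.3.3), without covariates, 2-sided, at a Benjamini-Hochberg adjusted p below 0.05 over all probe sets, or over 19775 genes for the pathway lists. The fit was tested on simulated data. Figures used matplotlib 3.10.9 under Python 3.11.15.

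The members and lists were chosen with earlier results of these data known. Of the pathway lists, up to 3 passing genes with the smallest p were named per list, and for WIPI1 and MAP1LC3B the 3 genes nearest in pattern. The other passing genes of MTOR and AMPK signalling, PIK3C3, WDR45B and WDR45 were added after their values were seen. The GC, CCAAT and TATA box searches were added after the data were seen. Deviations from the group means correlated at 0.47, 0.30 and 0.34 between arrays of the same replicate number. The numbers were therefore used as a block in an alternative fit, while the main fit had no block and no label states a shared batch. Array 2 of one group and array 3 of the other also correlated, at 0.37 and 0.24, so a pairing of arrays 2 and 3 by number is not established. The alternatives were this block, leaving out arrays, averaging arrays 2 and 3, a filter on low levels, a pseudocount of 16, other centring and normalization, another variance model and other probe set choices.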

Additional observations from a re-analysis of the deposited data

How the results depend on the processing

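Of the 9 member probe sets that passed, 4 kept their call under every alternative that included them, and 8 of the 21 others passed under at least 1. The count that rose, 6, was 11 with arrays 2 and 3 only, 3 with arrays 2 and 3 averaged, 3 without probe sets named _x_at or _s_at, and 4 to 8 on leaving out each array in turn. The count that fell, 3, was 5 with the replicate number as a block, 6 with arrays 2 and 3 only, 1 with arrays 2 and 3 averaged and 1 to 4 on leaving out each array. It was 0 with limma among the 12 member probe sets not named _x_at or _s_at, of which 1 was lower at an unadjusted p below 0.05, since that setting leaves out all 3 that fell. Pathway genes that rose, 23, were 7 with arrays 2 and 3 averaged, 15 without _x_at and _s_at probe sets and 13 to 27 on leaving out each array, and those that fell, 12, were 3 with averaging and 8 to 12 on leaving out each array. The number of all probe sets called, 10122, was 17104 with arrays 2 and 3 only, 2264 with averaging and 5829 to 13232 on leaving out each array. Averaging leaves 4 samples in place of 6. Without _x_at and _s_at probe sets, RAB7A had a change of -0.12 and ULK2 of 0.03, opposite in sign to their brightest probe sets, and the cause was not tested. Centring, a further quantile normalization, the pseudocount and the trended variance model kept every count within 1.5 times, the fall of 3 becoming 2 with the pseudocount, where ATG5 202511_s_at missed (adjusted p = 0.0562). The block changed no member call beyond those given beside the results.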
